A study of Homo sapiens with 12 samples.

Results

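The 8 genes described here encode 6 receptor tyrosine kinases (EGFR, ERBB2, ERBB3, MET, IGF1R and INSR) and 2 insulin receptor substrates (IRS1 and IRS2). They were chosen by symbol, mapped to their Ensembl identifiers, and are 8 of the 58302 genes in the count table, all of them among the 15826 that passed the filter on low counts. Cells of human oral squamous cell carcinoma (OSCC), a cancer of the mouth lining, were treated with 100 nM rapamycin or left as controls. RNA-seq of 2 rapamycin and 2 control libraries gave between 18492273 and 23763098 counted reads per library. MeRIP-seq, in which RNA fragments carrying N6-methyladenosine (m6A) are pulled down with an antibody and sequenced beside an input library, gave 1 list of m6A peaks each for HSC3 control, HSC3 rapamycin, CAL33 control and CAL33 rapamycin cells. HSC3 and CAL33 are established OSCC lines, and the cells for m6A had 3 days of rapamycin; the duration for RNA-seq was not stated separately. No label says that libraries came from separate cultures, so the p-values measure the spread between these libraries, which may be technical. In bulk RNA, fewer cells of a type and less RNA per cell cannot be told apart.

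Receptor tyrosine kinases sit in the cell membrane, bind growth factors outside the cell and phosphorylate each other and docking proteins inside it. The IRS proteins are the docking proteins of the insulin and IGF1 receptors and pass the signal to PI3 kinase, AKT and the mTOR complexes. Rapamycin inhibits mTOR complex 1, whose target S6 kinase restrains IRS proteins, and loss of this negative feedback is a known route by which mTOR inhibitors raise receptor and IRS signalling. Squamous carcinomas of the head and neck are known for abundant EGFR.

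The labels of the RNA-seq libraries conflicted with those of the m6A libraries. Both rapamycin RNA-seq libraries were labelled HSC3 and both controls CAL33, whereas number 1 was HSC3 and number 2 was CAL33 in every m6A label. If the RNA-seq labels are right, treatment and cell line cannot be told apart, and no fit can separate them. Over the 15826 genes, log2 expression correlated at 0.97 between rapamycin 1 and control 1 and at 0.96 between rapamycin 2 and control 2, against 0.77 between the rapamycin libraries and 0.81 between the controls. Of 357 genes with a peak in both HSC3 lists and neither CAL33 list, 70.9% had the higher mRNA level in number 1, and of 189 genes with the opposite pattern of peaks 64.6% had it in number 2. The libraries were compared within the pairs set by the numbers in their labels, with the number as a block in the model. Every difference for rapamycin below carries this doubt about the labels.

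Rapamycin libraries had higher INSR and IRS2 mRNA, whereas none of the 8 genes was lower. INSR rose 2.19-fold and IRS2 2.40-fold, and the other 6 genes did not pass the test (edgeR's quasi-likelihood test, Benjamini-Hochberg adjusted over all genes tested). Across all genes tested, 4.65% were called higher and 3.5% lower. The median log2 difference was 0.29 over the 8 genes and 0.05 over all genes tested. The 8 genes were chosen with earlier results of these data known. Without the block 0 genes were called, 0% of those tested, with 446 at an unadjusted p under 0.05, so both calls rest on the pairing. Expression is given as CPM, read counts relative to a library's total scaled by the trimmed mean of M-values (TMM). CPM is not per length, so levels are compared between libraries and not between genes; where a gene is called the most highly counted of a list, this refers to its reads and not to a level per length.

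**Figure D1:**
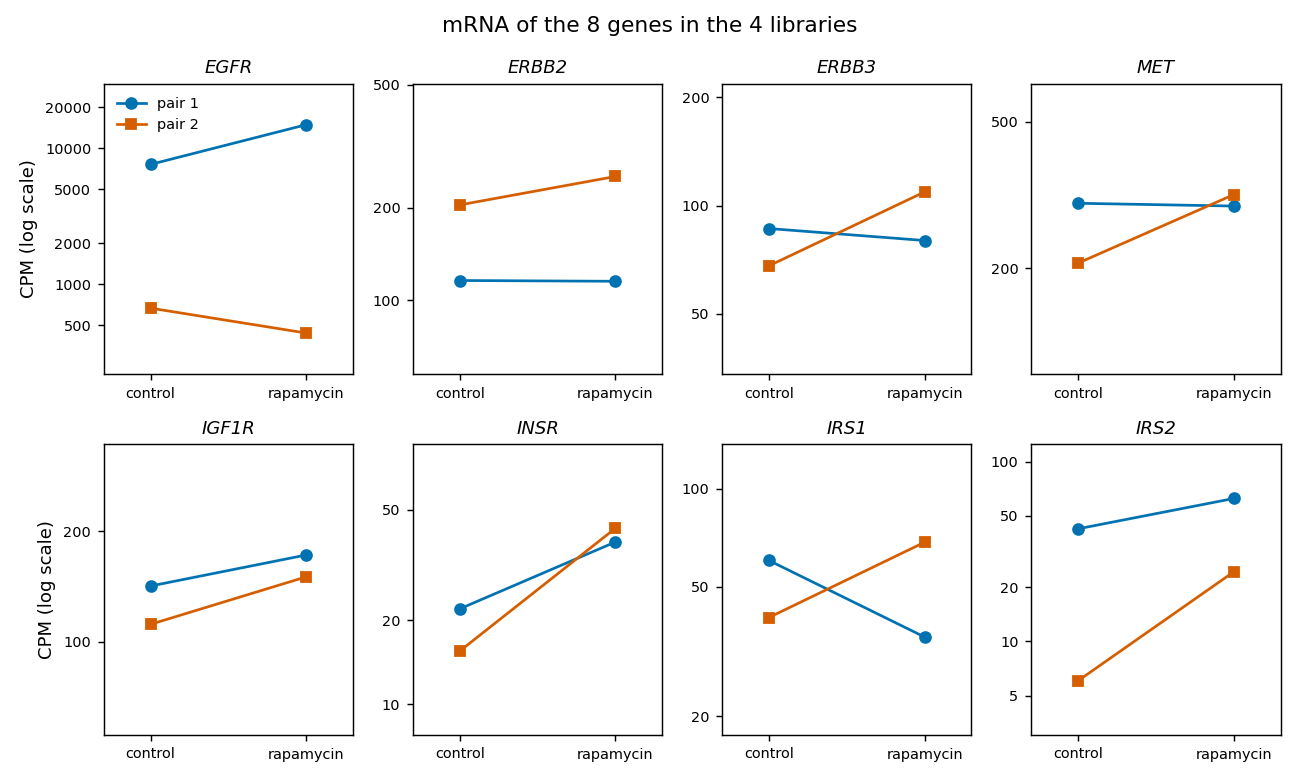
CPM on a log axis, with its own range in each panel, of the 8 genes in the control and rapamycin libraries; circles joined by a line are pair 1 and squares pair 2. Both lines rise for IGF1R, INSR and IRS2, and the lines run in opposite directions for EGFR and IRS1.

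EGFR (ENSG00000146648), the receptor for EGF, TGF-alpha and related ligands, lies at chr7:55019017-55211628 in RefSeq's GRCh38.p14. Its level was 14866 CPM in rapamycin 1, 440 in rapamycin 2, 7601 in control 1 and 670 in control 2. Both number 1 libraries were far above both number 2 libraries, and the treatment groups overlapped. EGFR took 1.53% of all counts in rapamycin 1 (95% Wilson interval 1.52 to 1.53, covering counting error only) and 0.0427% in rapamycin 2. The difference between the numbers was 19.6-fold (log2 number 2 minus number 1 of -4.29, SE 0.39, adjusted p = 4.43e-07 by edgeR). Rapamycin minus control was 0.97 on the log2 scale in pair 1 and -0.61 in pair 2, and the fitted difference was 0.18 (SE 0.35, 95% interval -0.56 to 0.92, adjusted p = 0.799).

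ERBB2 (HER2, ENSG00000141736), which has no known ligand and acts as a dimer partner of the other ErbB receptors, lies at chr17:39688094-39728658. It measured 115 CPM in rapamycin 1, 252 in rapamycin 2, 116 in control 1 and 204 in control 2. Here the number 2 libraries were the higher ones, by 1.96-fold (log2 0.97, SE 0.26, adjusted p = 0.00368 by edgeR). With rapamycin the fitted log2 difference was 0.15 (95% interval -0.38 to 0.67, adjusted p = 0.769). ERBB2 overlaps MIEN1 in the annotation, and the sources do not state whether strand was used in counting, so reads of the shared part cannot be assigned with certainty.

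ERBB3 (ENSG00000065361), a neuregulin receptor whose kinase is weak and which recruits PI3 kinase, lies at chr12:56080108-56103505. Its values were 79.9 CPM in rapamycin 1, 109 in rapamycin 2, 86.3 in control 1 and 68.0 in control 2. The groups overlapped, since control 1 lay above rapamycin 1. The fitted difference for rapamycin was 0.29 on the log2 scale (95% interval -0.27 to 0.84, adjusted p = 0.554).

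MET (ENSG00000105976), the receptor of hepatocyte growth factor, lies at chr7:116672196-116798377. It measured 295 CPM in rapamycin 1, 317 in rapamycin 2, 300 in control 1 and 207 in control 2. Control 2 alone was low, and the groups overlapped because control 1 lay between the rapamycin libraries. The fitted log2 difference was 0.30 (95% interval -0.24 to 0.83, adjusted p = 0.523), and HGF, its ligand, had 0 counts in all 4 libraries.

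IGF1R (ENSG00000140443), the receptor of insulin-like growth factors 1 and 2, lies at chr15:98648539-98964530. Its values were 172 CPM in rapamycin 1, 150 in rapamycin 2, 142 in control 1 and 112 in control 2. Both rapamycin libraries lay above both controls and both pairs rose, by 0.28 and 0.43 on the log2 scale. The fitted difference of 0.36 (SE 0.25, 95% interval -0.17 to 0.88) did not pass the test (adjusted p = 0.415 by edgeR). IGF1R and INSR were 2 of the 8 genes whose groups did not overlap in the higher direction and none did in the lower one. Over all genes tested, 15% had both rapamycin libraries above both controls and 16.5% had both below.

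INSR (ENSG00000171105), the insulin receptor, lies at chr19:7112265-7294414. It measured 38.2 CPM in rapamycin 1, 42.8 in rapamycin 2, 22.0 in control 1 and 15.5 in control 2. The groups did not overlap, the 2 rapamycin libraries giving a mean of 40.5 ± 3.3 CPM (SD, n = 2) and the 2 controls 18.7 ± 4.6 CPM (SD, n = 2). The fitted log2 difference was 1.13 (SE 0.31, 95% interval 0.49 to 1.77, adjusted p = 0.0253 by edgeR with the block), and the pairs gave 0.80 and 1.46. The fit without the block gave 1.11 with an adjusted p of 0.9997. With any single library left out, again with no block, the INSR difference stayed between 0.88 and 1.42. The numbers did not differ detectably (log2 -0.17, adjusted p = 0.718).

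IRS1 (ENSG00000169047), a substrate of the insulin and IGF1 receptors, lies at chr2:226731312-226799820. Its level was 35.0 CPM in rapamycin 1, 68.6 in rapamycin 2, 60.3 in control 1 and 40.2 in control 2. Rapamycin 1 was the lowest library and rapamycin 2 the highest. The pairs moved by -0.78 and 0.77 on the log2 scale, and the fitted difference was -0.005 (SE 0.34, 95% interval -0.73 to 0.72, adjusted p = 0.995).

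IRS2 (ENSG00000185950), the related substrate that is prominent in liver and beta cells, lies at chr13:109752695-109786583. It measured 62.5 CPM in rapamycin 1, 24.4 in rapamycin 2, 42.3 in control 1 and 6.04 in control 2. Within each pair the rapamycin library was the higher, by 0.56 and 2.00 on the log2 scale, but control 1 lay above rapamycin 2, so the groups overlapped. The fitted difference was 1.26 (SE 0.35, 95% interval 0.53 to 1.99, adjusted p = 0.0308 by edgeR with the block). The call was lost with DESeq2 (log2 1.29, adjusted p = 0.0713) and without the block (log2 0.84, adjusted p = 0.9997). Without rapamycin 1 or without control 2, in fits with no block, the difference was 0.013 and 0.033, and without control 1 it was 2.88. Number 1 exceeded number 2 by 4.18-fold (log2 -2.06, SE 0.36, adjusted p = 9.29e-05).

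**Figure D2:**
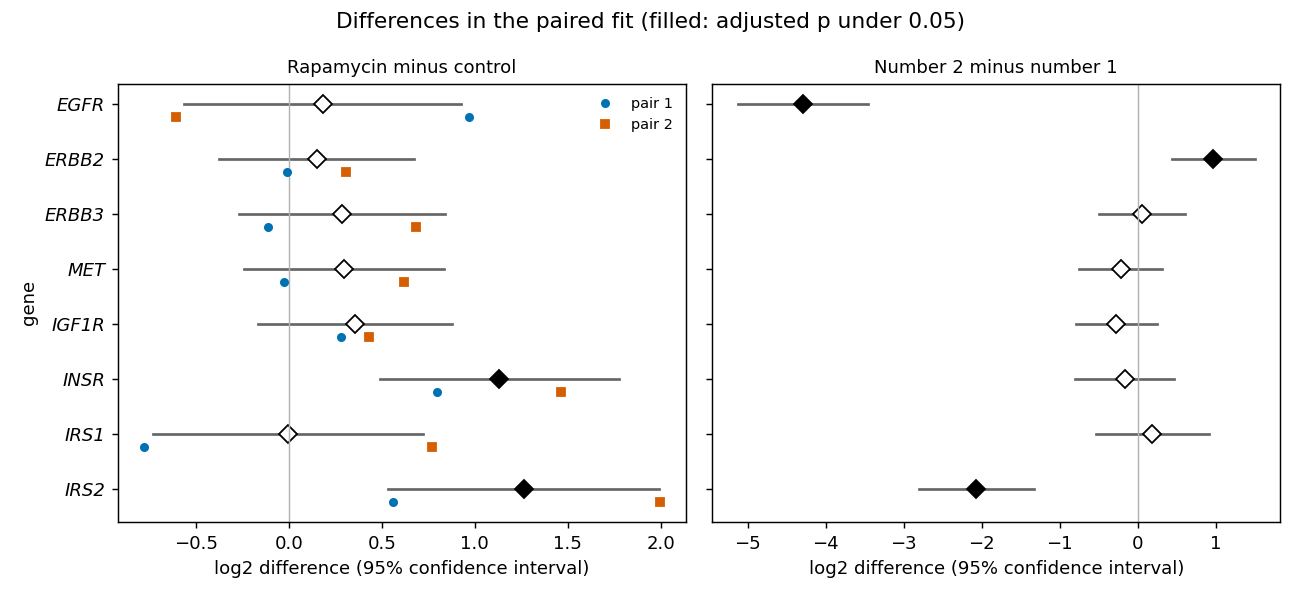
Fitted log2 differences of the 8 genes (diamonds, filled where the adjusted p was under 0.05) with 95% confidence intervals (lines), for rapamycin minus control on the left and number 2 minus number 1 on the right; circles and squares on the left are pairs 1 and 2. INSR and IRS2 are the filled genes on the left, and EGFR, ERBB2 and IRS2 on the right.

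In 3 of the 8 genes (IGF1R, INSR and IRS2) the rapamycin library was higher in both pairs, against 34.6% of all genes tested. In the other 5 the pairs had opposite signs, against 30.1% of all genes tested. In ERBB2 and MET the pair 1 difference was close to 0, at -0.0084 and -0.025 on the log2 scale. Between the numbers, 1 gene (ERBB2) was higher in number 2 and 2 (EGFR and IRS2) were higher in number 1, where the shares over all genes tested were 17% and 20.2%. The sum over the 8 genes was 15665 CPM in rapamycin 1 and 8370 in control 1, most of it EGFR, against 1405 in rapamycin 2 and 1322 in control 2.

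Because INSR and IRS2 were the genes that rose together, the 250 bases before their RefSeq starts (GRCh38.p14, both on the minus strand, 5′ to 3′) are shown, with matches to GGGCGG (the SP1 box) and CAAAACA (the core of insulin response elements) on either strand in capitals. The INSR window is chr19:7294415-7294664 and the IRS2 window chr13:109786584-109786833.
INSR: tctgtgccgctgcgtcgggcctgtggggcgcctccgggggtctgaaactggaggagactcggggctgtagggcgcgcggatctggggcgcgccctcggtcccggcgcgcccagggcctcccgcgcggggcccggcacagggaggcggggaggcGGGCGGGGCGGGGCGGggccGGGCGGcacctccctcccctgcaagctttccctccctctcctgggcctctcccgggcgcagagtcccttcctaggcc
IRS2: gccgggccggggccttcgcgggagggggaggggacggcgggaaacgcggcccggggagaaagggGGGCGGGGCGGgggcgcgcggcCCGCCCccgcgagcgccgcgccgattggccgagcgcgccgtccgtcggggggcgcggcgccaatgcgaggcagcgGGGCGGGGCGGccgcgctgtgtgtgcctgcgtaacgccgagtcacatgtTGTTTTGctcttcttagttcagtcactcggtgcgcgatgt
The INSR window was 78.4% G or C and held 4 matches to GGGCGG, some sharing bases. The IRS2 window was 76.4% G or C and held 5 such matches and 1 to CAAAACA, seen on the printed strand as TGTTTTG. Among all 35116 RefSeq windows of this length, 42.6% held GGGCGG and 4.30% held CAAAACA. Also searched were GTAAACA, a FOXO core found in 2.98% of all windows, and TATAAA, the TATA box found in 10.7%; neither was in these windows. Windows were given for 7 of the 8 genes, 8 windows in all with 2 for EGFR, and 6 of them held GGGCGG, 1 CAAAACA, 1 TATAAA and 0 GTAAACA. These are matches of letters and not measured binding sites.

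The ligands, other receptors, adaptors and downstream genes around the 8 were described from 6 lists of 87 genes, 76 of which were tested. The lists were chosen with earlier results of these data known, so an excess over all genes tested is no independent support. Rapamycin libraries were higher for 10 of the 76 and lower for 0, against 4.65% and 3.5% of all genes tested, and the median log2 difference was 0.26, against 0.05 over all genes tested. Both libraries of the rapamycin group lay above both controls for 10 of the 76 genes tested (13.2%), against 15% of all genes tested. HBEGF, GRB7 and GRB10 were the 3 of the called genes among these 10. Both rapamycin libraries lay below both controls for MST1R, GRB2, PTPN1 and RPS6KB1, a pattern that 16.5% of all genes tested had. DESeq2 called 7 of the 10 genes that edgeR called. Without the block none was called.

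Among ErbB and HGF ligands, 1 of 9 tested rose and 0 fell. HBEGF, a ligand of EGFR that is released from the cell surface, measured 59.1 CPM in rapamycin 1, 25.3 in rapamycin 2, 17.7 in control 1 and 10.3 in control 2 (log2 1.52, SE 0.32, adjusted p = 0.00452 by edgeR). Both rapamycin libraries were above both controls. EPGN and HGF were not tested. Of the insulin and IGF ligands and binding proteins, 0 of 6 tested were called in either direction, and INS, IGF1, IGFBP1 and IGFBP5 were not tested. The most highly counted, IGFBP7 and IGFBP4, which bind IGFs or related factors outside the cell, had log2 differences of 0.64 (adjusted p = 0.129) and 0.07 (adjusted p = 0.951).

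Of the other receptors and IRS family, 0 of 7 tested were called, and ERBB4, INSRR and IRS4 were not tested. IGF2R, which clears IGF2 and sorts lysosomal enzymes, was level across the libraries at 434 CPM in rapamycin 1, 425 in rapamycin 2, 442 in control 1 and 430 in control 2. EPHA2, an ephrin receptor, had a log2 difference of 0.47 (adjusted p = 0.332 by edgeR).

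Of 20 adaptors and receptor regulators, 5 rose and 0 fell. GAB2, a docking protein that recruits PI3 kinase and SHP2, measured 23.5 CPM in rapamycin 1, 3.40 in rapamycin 2, 6.97 in control 1 and 0.803 in control 2 (log2 1.89, SE 0.45, adjusted p = 0.00954). GRB10, an adaptor that inhibits the insulin receptor and is an mTOR complex 1 substrate, measured 36.3 CPM in both rapamycin libraries, 7.85 in control 1 and 21.5 in control 2 (log2 1.47, SE 0.36, adjusted p = 0.0159). GRB7, an ErbB adaptor encoded near ERBB2, measured 90.7 CPM in rapamycin 1, 153 in rapamycin 2, 54.6 in control 1 and 39.0 in control 2 (log2 1.35, SE 0.30, adjusted p = 0.00921). The groups did not overlap for GRB10 and GRB7, whereas for GAB2 control 1 lay above rapamycin 2. LRIG1, which promotes degradation of ErbB receptors, had a log2 difference of 1.06 (adjusted p = 0.0299). ERRFI1, an inhibitor of ErbB kinases named after its value was seen, had a log2 difference of 0.89 (adjusted p = 0.0334). With single libraries left out and no block, 2 of these turned negative: GAB2 was -0.19 without rapamycin 1 and 4.09 without control 1, and LRIG1 was -0.78 without rapamycin 2 and 2.85 without control 2.

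Of the PI3K and AKT pathway, 1 of 19 tested rose and 0 fell. PIK3CD, a catalytic subunit of PI3 kinase known mainly from leukocytes, measured 43.9 CPM in rapamycin 1, 19.2 in rapamycin 2, 26.3 in control 1 and 4.39 in control 2 (log2 1.41, SE 0.36, adjusted p = 0.0191 by edgeR). Control 1 exceeded rapamycin 2, and with DESeq2 the adjusted p was 0.0514. PIK3R2 and INPP5D were not tested. The list's median log2 difference was -0.11.

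Of 15 ERK pathway feedback genes, 3 rose and 0 fell, and the list's median log2 difference was 0.64. DUSP5, a nuclear phosphatase of ERK, measured 235 CPM in rapamycin 1, 99.6 in rapamycin 2, 101 in control 1 and 43.9 in control 2 (log2 1.20, SE 0.25, adjusted p = 0.00549). SPRED3, an inhibitor of RAS to ERK signalling, had a log2 difference of 1.68 (adjusted p = 0.0448), and ETV5, an ETS factor induced by ERK, had 0.99 (adjusted p = 0.0348); with DESeq2 these adjusted p-values were 0.129 and 0.0713. SPRED3 turned to -0.46 without rapamycin 1 and was 4.45 without control 1, in fits with no block. For these 3 genes each pair rose and the groups overlapped, since control 1 lay above rapamycin 2.

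**Figure D3:**
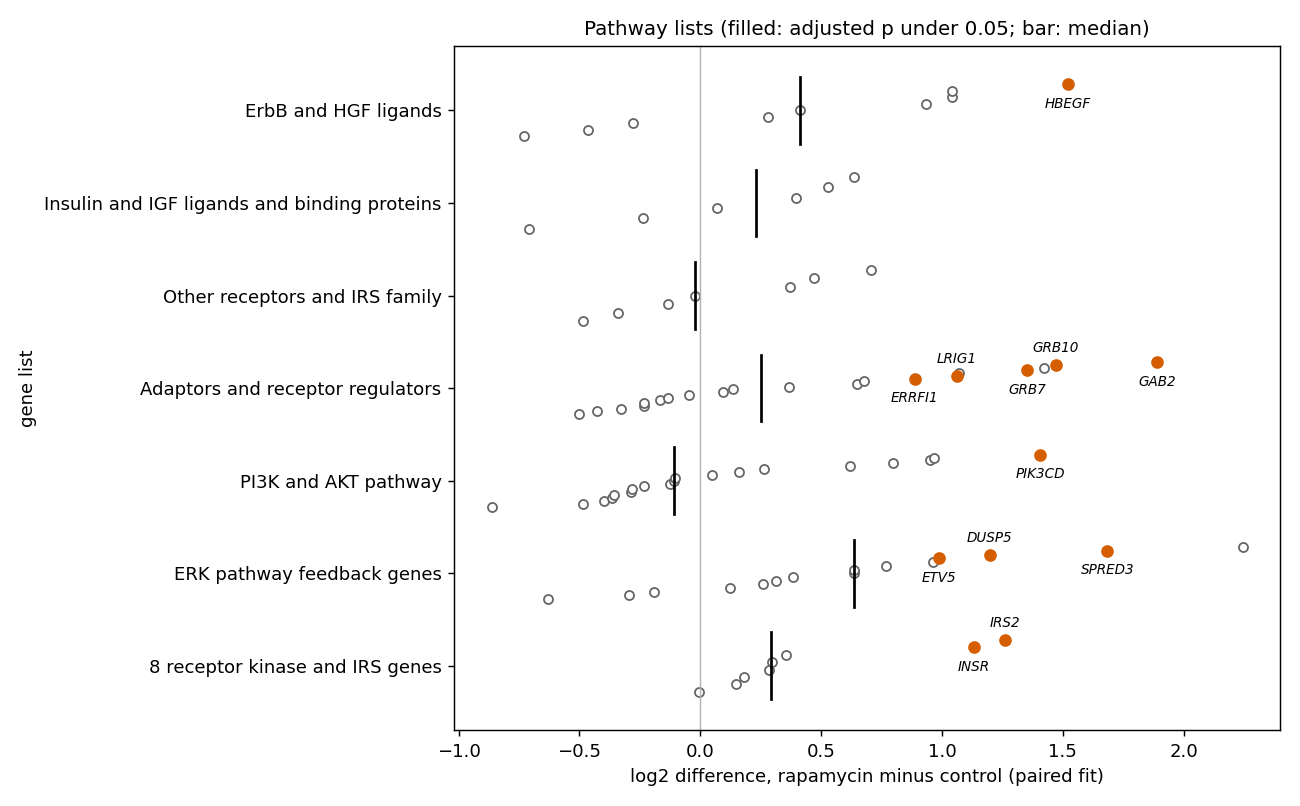
Fitted log2 difference of rapamycin minus control for each tested gene of 6 pathway lists and the 8 receptor kinase and IRS genes; each circle is a gene, filled and named where the adjusted p was under 0.05, and the bar is the list's median. All filled genes lie to the right of 0.

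The labelled cells are squamous epithelium, and CDH1, EPCAM and SFN were counted in all 4 libraries, CDH1 between 180 and 334 CPM. KRT14 was at 0 counts in both number 1 libraries. KRT17, the most highly counted of the 8 squamous markers, measured 5.05 CPM in rapamycin 1, 2119 in rapamycin 2, 4.89 in control 1 and 1346 in control 2. It did not fall with rapamycin: the pairs gave log2 differences of 0.04 and 0.65, and the fit gave 0.38 (adjusted p = 0.430 by edgeR). Of these 8 markers, 3 fell with rapamycin and 0 rose, namely KRT5, KRT6A and KRT14, where 3.5% of all genes tested were called lower. DESeq2 gave KRT14 no adjusted p. In fits with no block and without control 2, the log2 difference turned to 6.63 for KRT14 and 2.27 for KRT5 and was -0.61 for KRT6A. In the paired fit KRT5, a basal cell keratin, had a log2 difference of -2.43 (adjusted p = 6.06e-06 by edgeR) and went from 34.2 to 6.10 CPM in pair 1 and from 1703 to 327 in pair 2. The markers summed to 879 CPM in rapamycin 1, 3422 in rapamycin 2, 1082 in control 1 and 4783 in control 2. The part of the fall of KRT5, KRT6A and KRT14 in the rise of INSR and IRS2 was not tested.

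Markers of other cells were sparse. Of 6 fibroblast markers COL1A2, COL3A1 and DCN had 0 counts in every library, and COL1A1, the most highly counted, measured 29.3, 28.4, 22.0 and 8.79 CPM in rapamycin 1, rapamycin 2, control 1 and control 2 (log2 1.04, adjusted p = 0.0679). Their sum was 46.7, 28.5, 35.8 and 8.79 CPM in the same order. Of the leukocyte markers reported, PTPRC had 0 counts throughout, and CSF1R, the most highly counted, was at 15.7 CPM in rapamycin 1 and 20.7 in control 1 and under 1 CPM in number 2. Of 4 endothelial markers KDR had 0 counts throughout, and CDH5, the most highly counted, was at 41.6 CPM in rapamycin 2 and 25.6 in control 2 and under 1 CPM in number 1. Mitochondrial genes took 6.62%, 7.94%, 5.71% and 7.30% of counts in the same order.

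For each of the 8 genes the most similar other gene was found by the root mean square (RMS) difference of log2 CPM after centring each gene on its mean over the 4 libraries. INSR was closest to AMOTL2, an angiomotin family scaffold (RMS 0.03), which measured 264 CPM in rapamycin 1, 316 in rapamycin 2, 156 in control 1 and 109 in control 2. IRS2 was closest to ZNF503-AS1 (RMS 0.05), EGFR to ABCA10 (RMS 0.10), ERBB2 to SELENOS (RMS 0.02) and ERBB3 to CARMIL1 (RMS 0.02). MET was closest to SPAG5-AS1 (RMS 0.03), IGF1R to ZNF674-AS1 (RMS 0.02) and IRS1 to ZNF252P-AS1 (RMS 0.06). These are descriptions over 4 libraries, and several of the matched genes had few counts.

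The m6A lists held 3930 peaks in HSC3 control, 3952 in HSC3 rapamycin, 3625 in CAL33 control and 3079 in CAL33 rapamycin cells, each from 1 pair of IP and input libraries, so no difference between lists was tested. The 8 genes had 12, 14, 8 and 13 of these peaks in that order, 47 in all. Peaks were listed for 6 of the 8 genes in HSC3 control, 6 in HSC3 rapamycin, 4 in CAL33 control and 6 in CAL33 rapamycin cells. Over the genes tested in RNA-seq the shares with a peak were 17.6%, 17.5%, 16.1% and 14.2%, and over the 7782 genes with a mean of at least 20 CPM they were 26.0%, 25.7%, 25.2% and 21.6%. EGFR, MET, IRS1 and IRS2 had a peak in all 4 lists, IGF1R and INSR in 3, without CAL33 control, and ERBB2 and ERBB3 in none. A gene without a listed peak is not shown to lack m6A, since the lists hold only called peaks and the read depth behind them is unknown.

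Of the 47 peaks, 59.6% were annotated to a 3′ UTR and 31.9% to coding sequence, where all peaks of the 4 lists had 36.3% and 41.6%. A site found in several lists, as in EGFR and IRS2, was counted once per list, so these are not shares of distinct sites. Fold enrichment, the authors' ratio of IP over input, ranged from 2.07 to 413 in the 8 genes, and the list medians were 33.6 in HSC3 control, 33.3 in HSC3 rapamycin, 42.6 in CAL33 control and 35.9 in CAL33 rapamycin cells. Position was taken along the genomic span, introns included. On this scale peaks of EGFR, MET and INSR lay near the end of the gene. Most peaks of IRS1 lay in its coding sequence, 2039 to 4557 bases after the start of the gene, and IRS2 had peaks towards both ends. Position along the mRNA was not measured, so a place near the start of the span need not be near the start of the coding sequence.

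EGFR carried 10 peaks, 9 of them in the 3′ UTR. The strongest in every list covered the same stretch: chr7:55205967-55206566 in HSC3 control (fold enrichment 52.5), chr7:55205907-55206656 in HSC3 rapamycin (61.5), chr7:55205727-55206656 in CAL33 control (89.8) and chr7:55206057-55206476 in CAL33 rapamycin cells (132), in coordinates of hg38. Within their lists these stood at percentiles 60.0, 67.6, 67.2 and 86.9. The authors' log10 p-values were -25100, -59400, -476 and -280, so the p-values were far smaller in HSC3 than in CAL33 cells although the fold enrichment was lower there. A second peak just before it had fold enrichments of 7.32, 9.45, 4.36 and 12.5 in the same order, and each rapamycin list held a further peak nearer the end of the gene, at chr7:55208663-55208842 in HSC3 (2.65) and chr7:55209172-55209382 in CAL33 cells (25.5), which are separate sites that do not overlap.

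MET had 6 peaks. In HSC3 cells a 3′ UTR peak of 7.28 was listed in the control at chr7:116797907-116798146, and with rapamycin a coding peak of 62.0 at chr7:116795930-116796140 and a 3′ UTR peak of 5.47. In CAL33 cells the control peak had a fold enrichment of 44.7 and the rapamycin peaks 9.38 and 2.07. No MET peak of a rapamycin list overlapped a peak of the control list of the same line. IGF1R had 2 peaks in HSC3 control (47.7 and 25.2), 2 in HSC3 rapamycin (16.4 and 9.57) and 2 in CAL33 rapamycin cells, of which the stronger, 88.4, was in the 5′ UTR at chr15:98649031-98649241 and the weaker, 53.6, in the 3′ UTR.

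INSR had 5 peaks, all in the 3′ UTR. In HSC3 cells the peak at chr19:7113183-7113363 had a fold enrichment of 16.8 in the control (log10 false discovery rate -0.611) and its counterpart of the same start had 49.2 with rapamycin (log10 false discovery rate -9.37), at percentiles 32.9 and 61.0 of their lists. A second control peak had 11.2, with the same false discovery rate as the first. The CAL33 rapamycin peaks had 10.7 and 6.70, both with a log10 false discovery rate of -0.294. At a false discovery rate of at most 0.05, INSR kept a peak in HSC3 rapamycin cells alone.

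IRS1 had 11 peaks, 8 of them in coding sequence. In HSC3 control cells they had fold enrichments of 336 in the 5′ UTR (chr2:226799189-226799429) and 157 and 118 in coding sequence, and both coding peaks were overlapped in HSC3 rapamycin cells by peaks of 73.8 and 32.8. The change in percentile was -11.6 and -28.3 points at these sites. CAL33 control cells had coding peaks of 366, 72.4 and 17.0 and a 5′ UTR peak of 119, and CAL33 rapamycin cells a coding peak of 45.6 and a 3′ UTR peak of 413 at chr2:226735933-226736143, the highest of the 47. None of the CAL33 peaks of IRS1 overlapped between control and rapamycin.

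IRS2 had 9 peaks, 5 in coding sequence and 4 in the 3′ UTR. The 3′ UTR peak chr13:109755570-109755809 had identical ends in HSC3 control (fold enrichment 25.4), HSC3 rapamycin (20.5) and CAL33 rapamycin cells (40.2), and the CAL33 control peak of 136 lay elsewhere, at chr13:109754463-109754643. In HSC3 cells the coding peak of 191 in the control was overlapped by 1 of 47.4 with rapamycin, a change of -27.2 percentile points. Another coding peak of 271 at chr13:109784175-109784354 was listed with rapamycin and not in the control. The same held for a weaker coding peak of 8.2 at chr13:109785072-109785222. CAL33 rapamycin cells had a coding peak of 110.

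**Figure D4:**
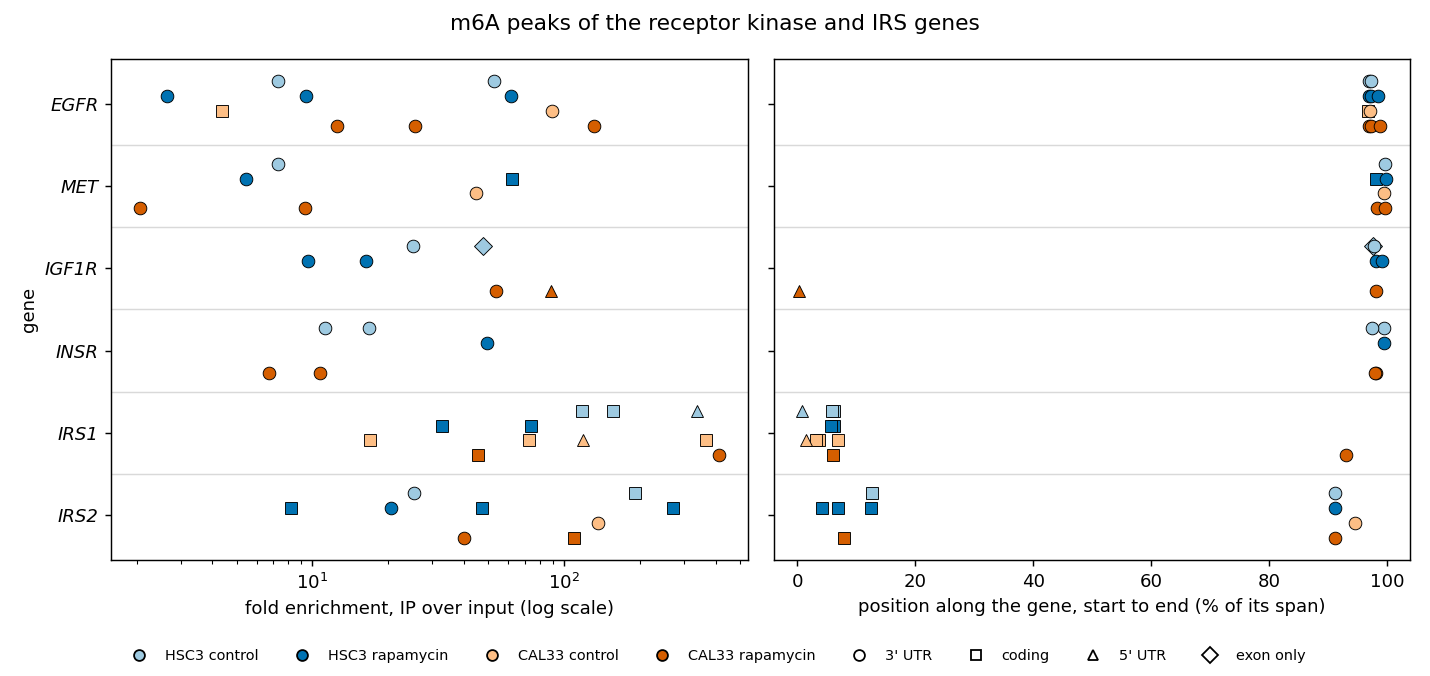
m6A peaks of the 6 genes that had any, coloured by list, with shapes for the annotated region; the left panel gives fold enrichment of IP over input on a log axis and the right panel the position of each peak's middle along the gene, in percent of its span from start to end. The highest value is the IRS1 3′ UTR peak of 413 in CAL33 rapamycin cells, and all EGFR, MET and INSR peaks lie at the right end of the gene. Spans are genomic and include introns.

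Between treatments of a line, an overlap of at least 1 bp joined 7 of the 12 control peaks (58.3%) and 7 of the 14 rapamycin peaks (50%) of these genes in HSC3 cells, where all peaks gave 28.2% and 28.4%. In CAL33 cells it joined 2 of 8 (25%) and 2 of 13 (15.4%), both in EGFR, where all peaks gave 25.1% and 29.9%. For changes in percentile, each peak was paired with the peak that it overlapped by the most bases. In these pairs the EGFR percentile was higher in the rapamycin list of each line. The rise was 3.31 and 7.62 points in HSC3 and 16.9 and 19.7 points in CAL33 cells. The shorter EGFR overlaps gave 55.7 points in HSC3 (1 bp) and -44.3 points in CAL33 cells (61 bp). The percentile was also higher for the joined INSR peak in HSC3 cells and lower for the 4 joined peaks of IRS1 and IRS2 in HSC3 cells. A percentile is a rank within its own list, and the CAL33 lists differ in length (3625 and 3079 peaks). Since each list is 1 pair of libraries, none of these differences has a replicate check.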

How the data were processed

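Total RNA of OSCC cells was sequenced as 4 RNA-seq and 8 MeRIP-seq libraries. The authors deposited whole-number counts per Ensembl gene, which the table's name ascribes to HTSeq. Per the labels, processing tools were cutadapt 2.5, HISAT2 2.1.0, featureCounts 1.6.3 and HOMER 4.10.4 on hg38, with no role or order given. The kit was stranded; the use of strand in counting is not given in the sources used here. The peak lists deposited by the authors give the ratio of IP over input as fold enrichment, and the p-value and false discovery rate as log10 values, 1 list per IP and input pair; the peak caller is not given in the sources used here.

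Counts were fitted with edgeR 4.0.16 (filterByExpr by treatment, TMM, robust quasi-likelihood, Benjamini-Hochberg, threshold 0.05), with the replicate number as a block. The pairing was taken from the numbers in the labels and checked in the data: number 2 minus number 1 correlated at 0.90 between treatments. DESeq2 1.42.0 and other filters, scalings and left-out libraries were alternatives. The fit leaves 1 residual degree of freedom per gene, and on simulated counts its false calls exceeded the threshold, so calls near 0.05 are weak. Of 58302 identifiers, 98.7% matched a symbol. Peaks were assigned by Ensembl identifier and overlaps counted over their exonic blocks. Promoter windows and gene spans came from RefSeq (GRCh38.p14).

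The 8 genes, the pathway and marker lists were chosen with earlier results of these data known. Named were all 8 genes and their peaks, the genes past the threshold in each pathway list (at most 4 a direction, by size of the difference) or else the 2 with the highest mean log2 CPM, and 1 most similar gene each. A leukocyte marker of the list is not reported here.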

Additional observations from a re-analysis of the deposited data

Results flagged for a closer look

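In 5 of the 8 genes the numbered pairs moved in opposite directions with rapamycin on the log2 scale, against 30.1% of all genes tested, and in no case was the difference between the pairs tested, since each pair is 1 library against 1. EGFR moved by 0.97 in pair 1 and -0.61 in pair 2. IRS1 moved by -0.78 in pair 1 and 0.77 in pair 2. ERBB3 moved by -0.11 and 0.68, MET by -0.025 and 0.62, and ERBB2 by -0.0084 and 0.31, so that in these 3 genes pair 1 stayed near 0 and pair 2 was higher. The labels leave unclear whether the pairs are cell lines.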

How the results depend on the processing

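With all libraries kept, 33 of 40 repeated values of the 8 genes kept their direction and side of the threshold. IRS2 missed the threshold with DESeq2 (log2 1.29), INSR and IRS2 without the replicate block (1.11 and 0.84), and IRS1, near 0 in the paired fit, turned positive with DESeq2 (0.0077), upper-quartile scaling (0.070), at least 10 counts in every library (0.021) and no block (0.044). Genes called numbered 1290 with the block (57.1% higher), 830 with DESeq2 (50.4% higher) and 0 without the block. Upper-quartile scaling gave 1165 (69.1% higher, median shift 0.07). With no filter on low counts, 1606 of 27308 genes were called (52.9% higher). At least 10 counts in every library gave 1236 (58.7% higher). Calls between the numbers fell from 5899 to 3927 with at least 10 counts in every library. With single libraries left out (no block, a lone library assumed to vary like the other group) or a whole number left out, the log2 difference ranged from -3.23 to 3.55 for EGFR, -0.47 to 0.66 for ERBB2, -0.11 to 0.68 for ERBB3, -0.025 to 0.62 for MET, 0.18 to 0.57 for IGF1R, 0.80 to 1.46 for INSR, -0.78 to 0.77 for IRS1 and 0.013 to 2.88 for IRS2. IRS2 was 0.013 without rapamycin 1, 2.88 without control 1 and 0.03 without control 2. Of the 10 pathway genes called, GAB2, LRIG1 and SPRED3 turned negative without a single library (-0.19, -0.78 and -0.46); the lowest and highest values were 0.85 and 2.08 for HBEGF, 0.96 and 1.71 for GRB7, 0.79 and 2.20 for GRB10, 0.18 and 1.65 for ERRFI1, 0.26 and 2.88 for PIK3CD, 0.46 and 1.97 for DUSP5 and 0.26 and 1.86 for ETV5. Leaving out a number gave -0.61 for EGFR without number 1. The 30 repeated peak counts and changes kept their direction, within 1.5 times for counts; at a false discovery rate of at most 0.05, 5 genes in place of 6 had a peak in HSC3 control and in CAL33 rapamycin cells. The causes of these shifts were not tested. The read depth behind the peaks is unknown, and each list rests on 1 pair of libraries.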
